A study of Homo sapiens with 4 samples.

Results

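The transcripts described here are those of chromatin remodellers and histone-modifying enzymes among RNA immunoprecipitated with HuR from MDA-MB-231, a human triple-negative breast cancer cell line. A peak was a member when the RefSeq transcript named in its annotation belonged to a gene whose symbol begins with KDM, KMT, SETD, HDAC, KAT and a digit, ARID, SMARC, BRD and a digit, EZH or NSD, or is CHD followed by 1 digit. By this rule 196 of the 14149 listed peaks were members, and their annotations named 44 of the 3312 genes in the list. RNA from the lysate of cells in culture was pulled down with a mouse antibody against HuR in 2 samples and with mouse IgG in 2 samples, which the study's methods call biological replicates. Libraries were made from total RNA without selection for poly(A) tails, and they speak for this 1 cell line. The list is a single table in which the samples were already combined, so a peak has 1 value, with no SD and no IgG value beside it, and the spread between replicates was not measured here.

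HuR, the product of ELAVL1, binds RNA at AU-rich and U-rich stretches, most often in 3′-UTRs and introns, and is known for prolonging the life of the mRNAs it holds. DNA in the nucleus is wound around histones, and the proteins encoded by these transcripts decide how tightly. Writers add acetyl or methyl groups to lysines of the histone tails, erasers remove them, readers such as bromodomain proteins bind the marked tails, and remodellers use ATP to slide or evict the histone octamer. Many of these genes are mutated or overexpressed in breast and other cancers.

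The value of a peak is the score given by HOMER, the program that called it. Every member peak was 347 bp long, so scores were compared between genes per peak of the same length. The score is not an enrichment over IgG, and it does not separate the abundance of a transcript from its recovery with the antibody. A gene without a peak is called unlisted, which does not show that HuR left its transcript unbound. Low scores lay on whole multiples of a step of 0.245 for 99.3% of 11121 scores under 100, within the rounding of the list of 0.05 (0.005 below 10), against 39.4% for evenly spread scores. Error on a single score is given as an exact Poisson 95% interval on the number of steps, which assumes that 1 step is 1 sequenced tag and covers counting error only.

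The windows below show where the high scores of HDAC2, SMARCA5 and KMT2E lay, since these were the highest non-UTR peaks of their genes that held a window of 300 bases clear of untranslated exons. They are hg38 sequence on the sense strand of the gene, 5′ to 3′, with exon bases of the canonical transcript in capitals and intron bases in lower case. The HDAC2 window, chr6:113953273-113953572 on the − strand, is the centre of a peak with a score of 158.3 at exon 6 of 14 and holds 142 exon and 158 intron bases.
HDAC2: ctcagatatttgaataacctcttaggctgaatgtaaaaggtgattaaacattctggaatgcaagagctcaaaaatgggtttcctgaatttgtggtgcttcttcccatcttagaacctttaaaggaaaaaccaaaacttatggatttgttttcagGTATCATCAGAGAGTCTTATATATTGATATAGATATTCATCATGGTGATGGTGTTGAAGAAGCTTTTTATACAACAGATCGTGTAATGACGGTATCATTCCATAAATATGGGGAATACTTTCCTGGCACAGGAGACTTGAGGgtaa
The SMARCA5 window, chr4:143548052-143548351 on the + strand, is the centre of a peak of 103.5 at exon 22 of 24 and holds 89 exon and 211 intron bases.
SMARCA5: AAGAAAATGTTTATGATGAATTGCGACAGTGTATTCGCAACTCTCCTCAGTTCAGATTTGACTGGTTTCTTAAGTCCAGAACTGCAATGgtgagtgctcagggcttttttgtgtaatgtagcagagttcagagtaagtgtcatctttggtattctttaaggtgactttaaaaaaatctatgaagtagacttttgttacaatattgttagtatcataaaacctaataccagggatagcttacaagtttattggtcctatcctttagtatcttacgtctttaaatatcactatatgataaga
The KMT2E window, chr7:105112031-105112330 on the + strand, is the centre of a peak of 93 and lies wholly in exon 27 of 27, in coding sequence.
KMT2E: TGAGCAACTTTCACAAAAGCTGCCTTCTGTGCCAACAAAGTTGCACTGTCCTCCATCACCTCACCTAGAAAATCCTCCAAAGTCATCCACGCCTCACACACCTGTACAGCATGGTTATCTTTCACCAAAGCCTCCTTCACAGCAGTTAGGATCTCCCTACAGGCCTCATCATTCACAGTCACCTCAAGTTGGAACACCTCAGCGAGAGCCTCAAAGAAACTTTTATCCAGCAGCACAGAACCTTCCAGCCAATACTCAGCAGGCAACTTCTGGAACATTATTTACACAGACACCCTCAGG

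In the HDAC2 window the whole exon sat inside the peak with both splice sites, and in the SMARCA5 window its 3′ end did. The 5 sites below come from the highest 3′-UTR peaks of their genes, and the capitals mark a short AU-rich or U-rich motif, written with T for U. The sites were cut around a motif of the kind that HuR is known to bind, so they do not show how frequent it was. ATTTA was in 4 of 20 member 3′-UTR peaks, or 20% (8.07 to 41.6), against 53.0% of others, and TTTTT in 70.0% against 78.6%. In a window moved by 173 bp the ATTTA shares were 35.0% (18.1 to 56.7) and 51.2%, and the intervals overlapped. The SMARCC1 site is at chr3:47586860-47586889 on the − strand, and SMARCC1 encodes a core scaffold subunit of the SWI/SNF remodeller.
SMARCC1: aatttgagctcgtATTTAcccctgctgata
The SMARCA5 site is at chr4:143553816-143553845 on the + strand, and SMARCA5 encodes the ATPase of the ISWI remodellers.
SMARCA5: tatagccaaagacATTTAgtattttccggt
The SETD5 site is at chr3:9476970-9476999 on the + strand.
SETD5: gcttcgaattttaTTTTTtctactcccaat
The KDM5A site is at chr12:284481-284510 on the − strand.
KDM5A: agcaaataacagcTTTTTgccttgcagccc
The SMARCC2 site is at chr12:56162779-56162808 on the − strand.
SMARCC2: aacctgaaattgtTTTTTaaagcacttaag

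Of the 107 protein-coding symbols that the rule takes in, 43 had a peak, which is 40.2% (Wilson 95% interval 31.4 to 49.7). Over all 20052 protein-coding genes the share with a peak was 15.4%. A peak annotated in a 3′-UTR was found for 12 of the 107, or 11.2% (6.53 to 18.6), against 6.09% of all protein-coding genes. The 44th listed gene was SMARCAD1-DT, a non-coding transcript that starts beside SMARCAD1. Its peak was annotated at its promoter, with the centre outside its canonical transcript and 942 bp from the nearest exon of it, and overlapped an exon of SMARCAD1. The symbols also take in genes not known for a place in chromatin, such as NSDHL, an enzyme of cholesterol synthesis, which was unlisted. SETD3, which methylates actin, was listed.

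Length moved with the share of listed genes. Exons of the canonical transcript summed to a median of 7492 bp (5864 to 9153) in the 43 listed protein-coding members and 4452 bp (3115 to 5424) in the 62 unlisted ones with a canonical transcript. Over other genes the medians were 4745 bp for listed and 2617 bp for unlisted ones. The 3′-UTR was 2605 bp in listed and 891 bp in unlisted members, and the exon number was 24 against 16.5.

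Set beside genes of the same length class, the share of members with a peak was 0 of 8 below 2 kb, 5 of 22 or 22.7% from 2 to 4 kb, and 10 of 30 or 33.3% from 4 to 6 kb. Other genes in these classes had a peak in 3.34%, 13.6% and 26.3%. From 6 to 8 kb the share of members was 9 of 18, or 50% (29 to 71.0), against 32.6%. At 8 kb or more it was 19 of 27, or 70.4% (51.5 to 84.1), against 34.8% (32.4 to 37.3). The intervals of members and other genes overlapped in the 4 shorter classes and were separate in the longest. That longest class has no upper limit, and length was not matched within a class. How far the level of each transcript in these cells shaped these shares was not tested, since no expression value stands beside the peaks.

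**Figure D1:**
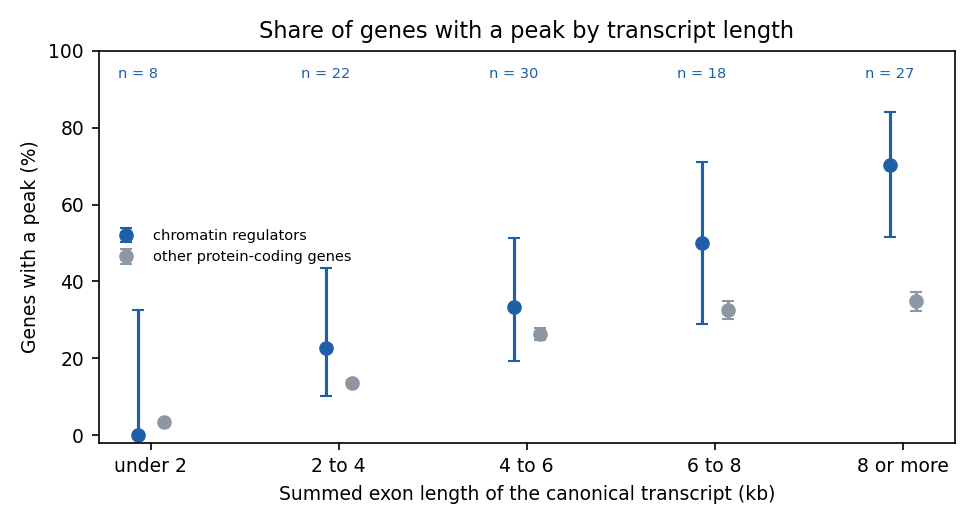
Share of protein-coding genes with a peak (%) by the summed exon length of the canonical transcript (kb), for chromatin regulators (blue, number of genes above) and other genes (grey), with bars for Wilson 95% intervals. Both shares are larger in longer classes, from 0 of 8 to 19 of 27 for the chromatin regulators and from 3.34% to 34.8% for other genes.

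Member peaks were lower than the rest of the list. Their scores ran from 8.81 to 223.4, with a median of 25.4 (23.2 to 30.1) and quartiles of 16.4 and 42.9, and the other 13953 peaks had a median of 34.0 (33.3 to 35.0) and quartiles of 17.6 and 84.4. At least 100 was reached by 7 member peaks, which is 3.57% (1.74 to 7.19), against 21.7% (21.0 to 22.3) of other peaks. Members held 1.39% of the peaks but 0.476% of the summed score.

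Reduced to the best peak of each gene, the medians were 28.0 (19.6 to 38.7) for the 44 members and 34.4 (32.5 to 36) for the other 3268 genes, and these intervals overlapped. Members had a median of 3 peaks per gene against 2, and 11 of 44 had 1 peak. KMT2E had the most, with 16, and KMT2C had 14, SMARCC2 12 and ARID2 11.

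**Figure D2:**
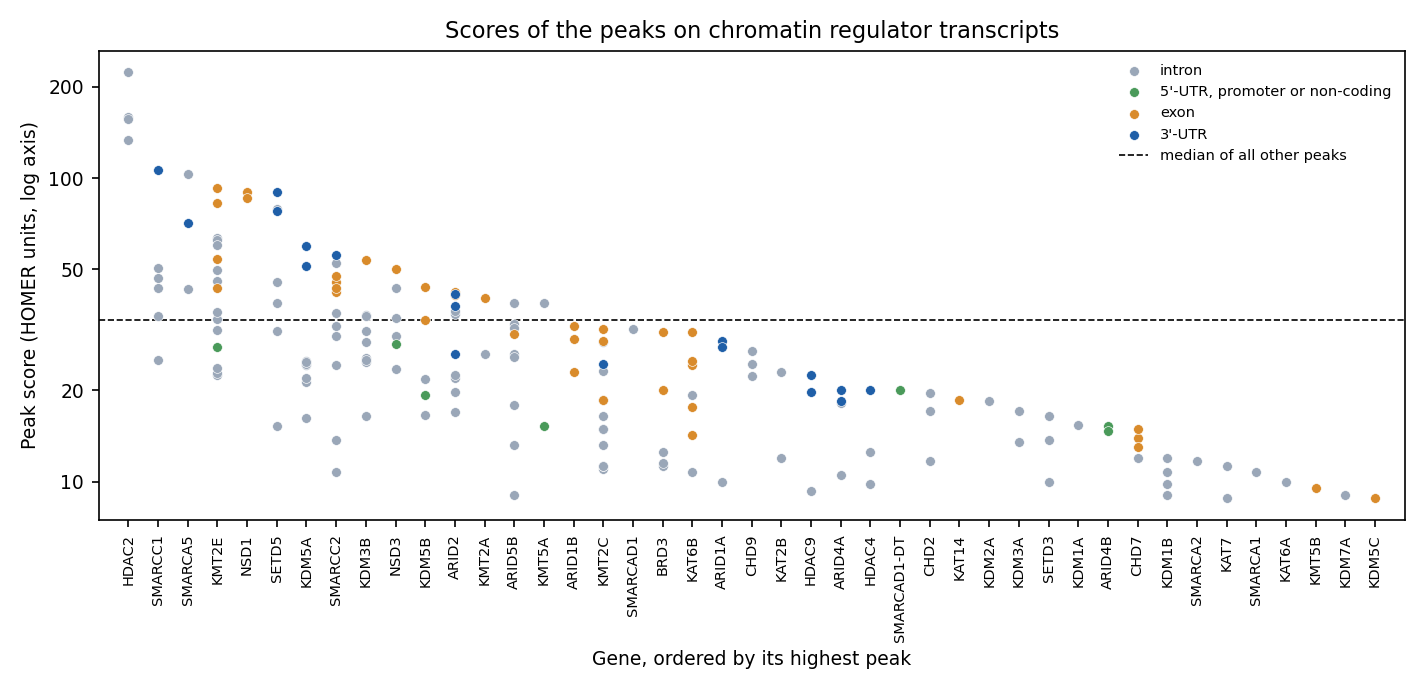
Peak score (HOMER units, log axis) of member peaks on 43 genes, 1 column per gene in order of its highest peak and coloured by the deposited annotation, with the median of all other peaks as a dashed line. The 4 HDAC2 peaks stand above all others plotted, SMARCC1 and SMARCA5 also reach 100, and the columns from KDM1B on stay at or below 12.

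The KMT, SETD, EZH and NSD symbols were grouped as methyl writers by name, and not all encode an active histone methyltransferase. A peak was found on 9 of 27 genes, or 33.3% (18.6 to 52.2) against 15.4% of all protein-coding genes, with 53 peaks and a median score of 30.3. KMT2E alone held 16 of these peaks. KMT2E, a trithorax relative with a PHD finger and a SET domain, had scores from 22.5 to 93 (83.9 to 102.8), and both peaks in its last coding exon, 93 and 82.5, were above its other 14. NSD1, which methylates histone H3 at lysine 36, had only 2 peaks, 90.1 (81.1 to 99.7) and 86.1, and both lay in exon 2 of 23. These overlapped on opposite strands and differed by less than their counting error.

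SETD5 had 7 peaks, of which both 3′-UTR peaks (89.8 and 77.8) and a peak at exon 12 (78.8) were high, while the other 4 were between 15.2 and 45.5. KMT2C, an enhancer H3 lysine 4 methyltransferase and a common target of mutation in breast cancer, had 14 peaks spread from exon 2 to exon 59 and none above 31.8 (26.6 to 37.8). The H4 lysine 20 writers KMT5A and KMT5B had best scores of 38.7 and 9.54. KMT2A, the MLL1 methyltransferase, had a peak of 40.4 in exon 3 and 1 of 26.4 at exon 19. NSD3 reached 50.2 (43.5 to 57.5) at exon 8, and SETD3, which methylates actin, 16.4.

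The 18 unlisted symbols of this group were KMT2B, KMT2D, KMT5C, SETD1A, SETD1B, SETD2, SETD4, SETD6, SETD7, SETD9, SETDB1, SETDB2, NSD2, EZH1 and EZH2, and also the readthrough SETDB2-PHF11, the Polycomb inhibitor EZHIP and NSDHL, which is no methyl writer. The EZH family was thus the one family of the 11 in the rule with 0 listed genes, 0 of 3 symbols with EZHIP counted. The Wilson interval allows a share of up to 56.1% and took in the 15.4% of all protein-coding genes. EZH2, the catalytic subunit of Polycomb repressive complex 2, was unlisted, as was the Polycomb subunit EED, while its partner SUZ12 had a best peak of 109.4. Of 26 Polycomb subunits outside the rule, 11 were listed.

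Acetyl writers of the KAT symbols were listed for 5 of 8 genes, or 62.5% (30.6 to 86.3) beside the same 15.4%, but with low scores, a median of 17.6 over 13 peaks. None of the 13 was in a 3′-UTR, where 10.2% of all member peaks and 14.6% of other peaks lay, and 13 peaks are too few to tell these shares apart. KAT6B, the MORF acetyltransferase, led with 31.1 (25.9 to 37.0) in its last coding exon, followed by KAT2B at 23.0, KAT14 at 18.6, KAT7 at 11.3 and KAT6A at 10.0. The unlisted genes were KAT2A, KAT5 and KAT8, which encode GCN5, TIP60 and MOF.

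**Figure D3:**
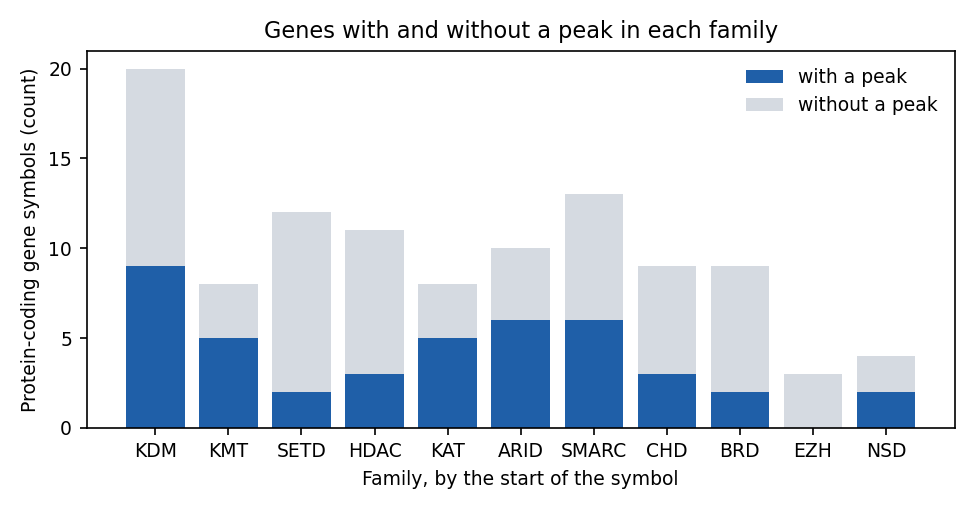
Number of protein-coding gene symbols with a peak (blue) and without a peak (grey) in each of the 11 families, named by the start of the symbol. KDM has the most listed genes, 9 of 20, KAT and KMT each have 5 of 8, and EZH has 0 of 3. Over all protein-coding genes the share with a peak was 15.4%.

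Among erasers, demethylases of the KDM symbols had a peak on 9 of 20 genes, or 45% (25.8 to 65.8) against 15.4%, with 33 peaks and a median of 22. KDM5A and KDM5B, which remove methyl groups from H3 lysine 4, and KDM3B, which acts on H3 lysine 9, were the highest. KDM5A had 59.7 (52.5 to 67.7) and 51.4 in its 3′-UTR and 7 further peaks between 16.2 and 25, so its 3′-UTR peaks stood apart from the rest of the transcript. KDM3B had 9 peaks with 1, in exon 8, at 53.6 (46.7 to 61.2), and the others were between 16.4 and 35.5. KDM5B had 5 peaks, the highest at 43.8 (37.6 to 50.7) in exon 23.

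The remaining demethylases were lower, with best scores of 18.4 for KDM2A, 17.1 for KDM3A, 15.4 for KDM1A, the LSD1 demethylase, and 12 for KDM1B. KDM7A at 9.05 (6.38 to 12.5) and KDM5C at 8.81 (6.17 to 12.2) were, with KMT5B, the 3 members with the lowest best score, and each had 1 peak. Unlisted demethylases included KDM2B, KDM4A, KDM4B, KDM4C, the H3 lysine 27 demethylases KDM6A and KDM6B, and KDM8.

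Deacetylases had a peak on 3 of 11 genes, or 27.3% (9.75 to 56.6), an interval that took in the 15.4% of all protein-coding genes. HDAC2, a class I enzyme of the NuRD, SIN3 and CoREST corepressors, had the highest score of all members, 223.4 (209.2 to 238.4), and ranked 333 of 3312 genes. Its 4 peaks had scores of 223.4, 158.3, 156.4 and 133.4, all above the best peak of every other member. They were annotated in intron 13, intron 5 on both strands and intron 8, each at 4 to 197 bp from an exon, and the best peak, chr6:113940921-113941267, had its centre 6 bp from exon 14, the last. Although annotated in an intron, that peak held 168 bp of exon 14, and the point 173 bp back from its centre lay in the 3′-UTR. The HDAC2 3′-UTR is 8033 bp long and holds ATTTA 29 times.

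The class IIa enzymes were low. HDAC4 had 20.1 (16.0 to 24.9) in its 3′-UTR, 12.5 and 9.79. HDAC9 had 22.5 and 19.8, annotated in the 3′-UTR of a transcript with 11 exons that ends early, and 9.30 at exon 5. In the canonical HDAC9 transcript of 26 exons the first 2 of these lay in an intron. The unlisted deacetylases were HDAC1, HDAC3, HDAC5, HDAC6, HDAC7, HDAC8, HDAC10 and HDAC11, so HDAC2 was listed without HDAC1, its closest relative and partner in the same complexes.

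Among readers of acetyl-lysine, BRD3, of the BET subfamily that is the target of bromodomain inhibitors, had 5 peaks. The highest were 31.1 (25.9 to 37.0) and 20.1, on opposite strands of exon 6, and the other 3 were between 11.3 and 12.5. BRD2, of the same subfamily, and BRD7 and BRD9, which encode subunits of SWI/SNF complexes, were unlisted.

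The ARID, SMARC and CHD symbols, grouped as remodellers by name, had a peak on 15 of 32 protein-coding genes, or 46.9% (30.9 to 63.6) against 15.4%. The 15 take in ARID4A, ARID4B and ARID5B, with 4, 2 and 9 peaks, which are not known as remodeller subunits. The 66 peaks of the group had a median of 26.7 and held 10 of the 20 member peaks in 3′-UTRs. SMARCC1 had the highest, 106.5 (96.7 to 116.9) in the 3′-UTR at chr3:47586858-47587204, and its other 5 peaks were between 25.2 and 50.7. SMARCA5 had 3 peaks, of 103.5 (93.9 to 113.9) at exon 22, 71.2 in the 3′-UTR and 43.1 at exon 10.

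SMARCC2, the paralogue of SMARCC1, had 12 peaks along 29 exons with scores from 10.8 to 56.0 (49.0 to 63.8), the best again in the 3′-UTR. The ATPase genes of SWI/SNF were low or unlisted: SMARCA2 had 1 peak of 11.7, and SMARCA4 had none. SMARCA1, the second ISWI ATPase, had 1 peak of 10.8, and SMARCAD1 had 1 of 31.8. The core and accessory SWI/SNF subunits SMARCB1, SMARCD1, SMARCD2, SMARCD3 and SMARCE1, and the annealing helicase SMARCAL1, were also unlisted.

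The ARID genes encode proteins with an AT-rich interaction domain, which binds DNA. Of these, 6 of 10 were listed, or 60% (31.3 to 83.2), against 15.4% of all protein-coding genes. ARID2, of the PBAF form of SWI/SNF, had 11 peaks with a best score of 42.3 (36.3 to 49.1) in exon 7 and 3 peaks in the 3′-UTR. ARID1A and ARID1B, the alternative subunits of the BAF form, had best scores of 29.1 and 32.5, with intervals of 24.1 to 34.8 and 27.3 to 38.6 that overlapped. The best ARID1A peak was in the 3′-UTR and that of ARID1B in the last coding exon. ARID5B reached 38.9, ARID4A 20.1 and ARID4B 15.2. The CHD helicases CHD9, CHD2 and CHD7 had best scores of 26.9 (22.1 to 32.4), 19.6 and 14.9. Their 10 peaks included 0 in 3′-UTRs, beside 10.2% of all member peaks and 14.6% of other peaks. CHD1, CHD3, CHD4, CHD5, CHD6 and CHD8 were unlisted.

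By the deposited annotation, which is read at the centre of a peak, 130 member peaks were in introns, 38 in exons outside the UTRs, 20 in 3′-UTRs, 3 in 5′-UTRs, 3 at promoters and 2 in non-coding exons. The intron share was 66.3% (59.5 to 72.6) against 61.8% of other peaks, and the 3′-UTR share was 10.2% (6.70 to 15.2) against 14.6%, and both of the members' intervals took in the other value. The exon share was 19.4% (14.5 to 25.5) against 12.5% (11.9 to 13.0). Introns were the most frequent annotation, but 15 of the 44 genes had intron peaks alone and the best peak of a gene was annotated in an intron for 18.

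The 3′-UTR peaks had a median score of 39.7, exon peaks 32.2 and intron peaks 24, and the same order held among other peaks at 66.1, 44.8 and 28.9. Within the 12 members that had peaks in the 3′-UTR and elsewhere, 11 had the higher median score in the 3′-UTR, and the exception was SMARCA5 with 71.2 against 73.3. The median log2 ratio over the 12 was 0.76 (0.43 to 1.20), and over 934 other genes it was 0.84, with the 3′-UTR higher in 86.8%. The ratio was 1.51 in ARID1A, 1.30 in SMARCC1, 1.20 in KDM5A and 0.38 in ARID2. The best peak of the gene was in the 3′-UTR for 9 of these 12.

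The intron peaks lay close to exons. By the canonical transcript 133 member peaks had their centre in an intron, at a median of 93 bp from the nearest exon, and 126 of them, or 94.7% (89.5 to 97.4), lay within 1 peak length of 347 bp. Of the 126 member peaks, all 58 on the + strand had the exon on the left, and all 68 on the − strand had it on the right. Among other such peaks the shares were 99.5% and 99.6%, so the placement was shared by the whole list. Among members this placement held for genes of either strand, and 99 of 196 member peaks, or 50.5% (43.6 to 57.4), were on the strand of their gene. Among other peaks the share was 53.2%, and the kit named in the labels does not mark strand.

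When the reading point was moved 173 bp back along the listed strand, from the centre of a peak to its edge, the intron share of the members fell from 67.9% at the centre to 20.4% (15.4 to 26.6), and the share in coding exons was 65.8% (58.9 to 72.1) instead of 19.4%. The same step forward gave 78.6% in introns and 9.69% in coding exons. The share in 3′-UTRs hardly depended on the position, with 10.2% at the centre and 10.7% back. At the point 173 bp back the coding-exon share of other peaks was 52.9% (52.1 to 53.8), and their 3′-UTR share was 18.9% (18.2 to 19.6). Members had there a larger share in coding exons and a smaller one in 3′-UTRs than the rest, with intervals that did not overlap. On the canonical transcript this was also so at the centre. The coding-exon shares there were 19.4% (14.5 to 25.5) against 13.0% (12.4 to 13.6). The 3′-UTR shares were 10.2% (6.70 to 15.2) against 17.2% (16.6 to 17.9).

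With the exons of all annotated transcripts in place of the canonical one, 44.9% of member peaks were in an exon at the centre and 86.7% (81.3 to 90.8) at the point 173 bp back. Only 17 of the 196 peaks held no base of a canonical exon, 142 lay partly in one and 37 wholly. Whether the reads behind an intron annotation came from spliced or unspliced transcripts was not tested, since the list holds no reads.

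**Figure D4:**
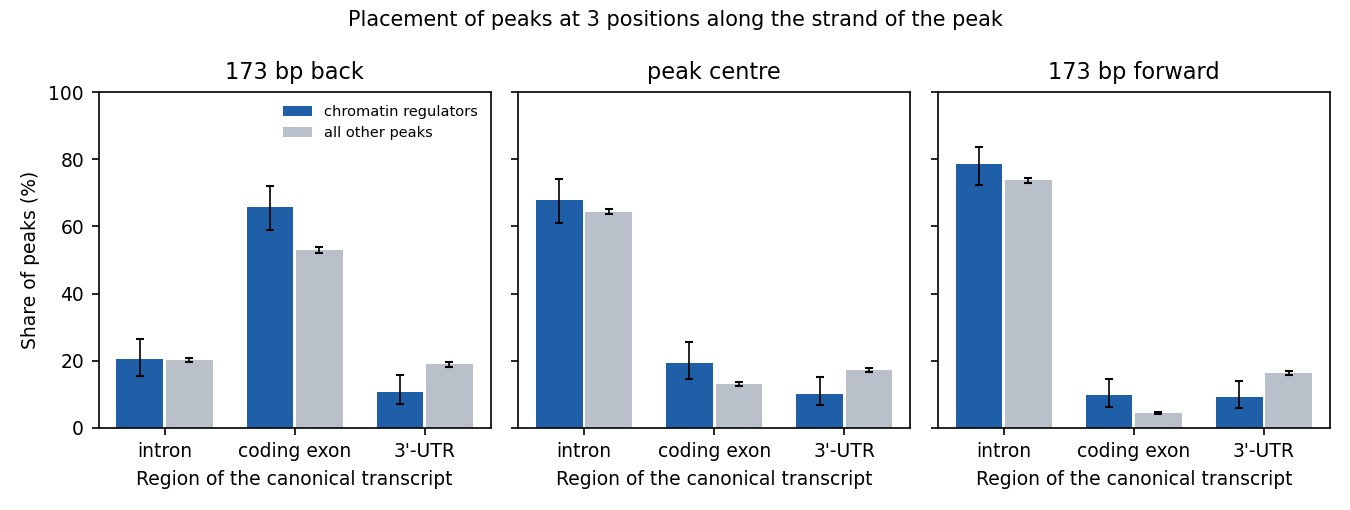
Share of peaks (%) in introns, coding exons and 3′-UTRs of the canonical transcript, read 173 bp back along the strand of the peak, at its centre and 173 bp forward, for chromatin regulators (blue) and all other peaks (grey) with Wilson 95% intervals. Moving the reading point back turns 67.9% of member peaks in introns into 20.4% and 19.4% in coding exons into 65.8%, while the 3′-UTR share stays near 10%.

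Peaks of the 2 strands came in pairs around exons. Member peaks lay at 159 exons, and 28 of these, in 18 genes, had a peak on each strand. The + peak lay to the right of the − peak in 27 of the 28, at a median offset of 316 bp, and ARID4B exon 24 was the exception. The 2 scores of a pair differed by a median of 1.18-fold, the + peak was higher in 17 and the − peak in 11, and the Poisson intervals overlapped in 19.

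Some pairs were unequal. ARID5B exon 9 had 25.7 on the + and 13.2 on the − strand, and KMT2E exon 14 had 63.4 and 36.2. At the other end were NSD1 exon 2, with 90.1 and 86.1, and ARID1A exon 20, with 29.1 and 27.7. Counted as merged loci of overlapping peaks, the 196 member peaks came to 169.

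**Figure D5:**
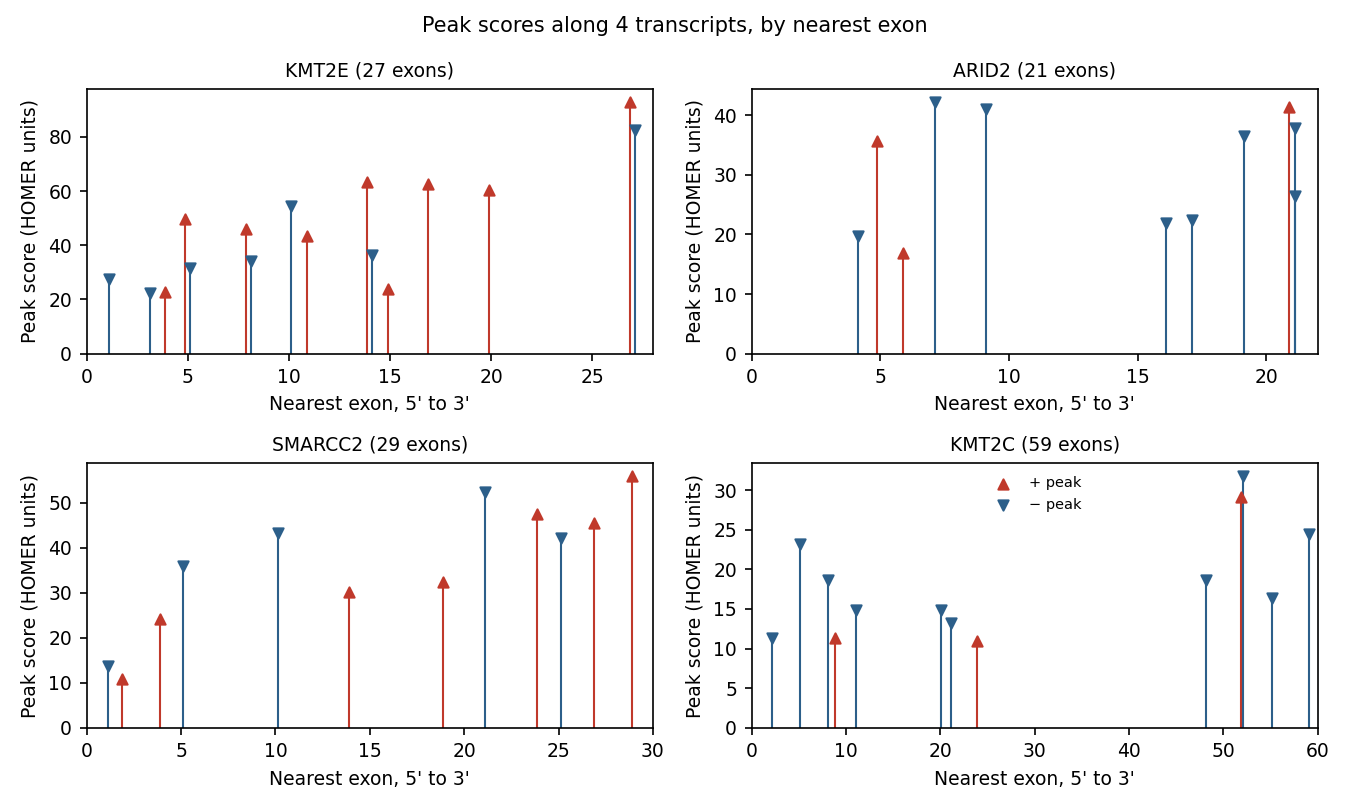
Peak score (HOMER units) against the number of the nearest exon, counted 5′ to 3′ in the canonical transcript, for peaks within 347 bp of an exon of KMT2E, ARID2, SMARCC2 and KMT2C, which leaves out 1 KMT2C peak in intron 1. Red triangles are peaks on the + strand and blue ones peaks on the − strand: KMT2E carries pairs of peaks at several exons and is highest at its last, SMARCC2 also is highest at its last with 56, and KMT2C has no peak above 31.8 along its 59 exons.

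Motifs that HuR is known for were searched on the sense strand of the 20 member peaks in 3′-UTRs, which came from 12 genes and in part overlapped. ATTTA was present in 4 peaks, 20% (8.07 to 41.6), on ARID1A, ARID4A, SMARCA5 and SMARCC1, against 53.0% (50.8 to 55.2) of 2032 other 3′-UTR peaks. Read in a window moved 173 bp back it was in 35.0% (18.1 to 56.7) against 51.2%, where the intervals overlapped. TATTTAT, which contains ATTTA, was in 0 of 20, which allows a share of up to 16.1%, against 8.32%. TTTTT was in 14, or 70.0% (48.1 to 85.5), against 78.6%. The median GC content of the member peaks was 42.5% and that of the others 37.5%.

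Copies of ATTTA per kb of the whole 3′-UTR are another measure. In it the intervals of listed members and other listed genes overlapped, and those of the members were wide. Listed protein-coding members had a median of 2.59 copies per kb of 3′-UTR and those with a 3′-UTR peak 2.29 (1.02 to 3.04), against 2.68 in other listed genes and 2.74 (2.63 to 2.86) in other genes with a 3′-UTR peak. Of the 12 members with a 3′-UTR peak, 11 had ATTTA somewhere in the canonical 3′-UTR, which for HDAC9 is not the 3′-UTR that held its peaks, and SMARCC2 had 0 copies in 1333 bp. Among members the unlisted genes had 1.52 per kb. KDM1B and CHD9 had 6.43 and 5.37 per kb, the highest, and 0 peaks in their 3′-UTRs.

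Partners of these enzymes outside the rule were taken from a list of 172 chromatin genes in 9 classes. A peak was found for 69 of them, or 40.1% (33.1 to 47.6), beside 40.2% of the members and 15.4% of all protein-coding genes, with a median best score of 41.4. By class the counts were 12 of 20 for NuRD, SIN3 and other corepressor subunits, 11 of 26 for Polycomb subunits, 9 of 21 for ISWI, INO80 and SRCAP remodellers and 10 of 26 for subunits of acetyltransferase complexes. They were 5 of 17 for SWI/SNF subunits outside the rule, 4 of 10 for COMPASS partners, 5 of 20 for other writers, 4 of 13 for other erasers and 9 of 19 for bromodomain readers and DNA methylation.

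The 5 highest were ACTB with 25897.6, which encodes beta-actin and is a SWI/SNF subunit beside its place in the cytoskeleton, GPS2 with 2624.6, MORF4L1 with 849.4, RBBP4 with 495.5 and MTA2 with 435.1. The last 2 encode subunits of NuRD, the complex in which HDAC2 acts. Each of these 5 best scores was above that of HDAC2. The GPS2 peak was annotated at a transcript termination site. Overlap with exons of other genes was checked for member peaks only, so whether its score belongs to GPS2 was not tested.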

How the data were processed

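RIP-seq of MDA-MB-231 cells was grouped by antibody, 2 HuR and 2 IgG samples, per the labels. The submitters' processing notes name STAR, HOMER and hg38. The methods name ANNOVAR for annotation, whereas the file header holds a HOMER annotation command with hg38. The methods say that the peaks kept were those matching a change in transcript abundance, and the threshold is not given in the sources used here, nor are versions, tag settings or pooling. The deposited list gives a HOMER peak score of unstated scale. Per the file headers it also gives a focus ratio, a fraction between 0 and 1 for how reads sit around the centre, with a median of 0.548 in members and 0.542 in other peaks, and a distance to the nearest start site. The depth of the libraries is unknown from it.

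The host gene was that of the RefSeq transcript in the annotation, found for 13835 of 13929 peaks with a transcript, and 13704 peaks had a canonical transcript in GENCODE 44. The gene name column, the nearest start site, held another gene for 95 member peaks, or 48.5% (41.6 to 55.4), and was not used for membership. Coordinates are 1-based hg38. The deposited annotation is read at the centre of a peak, and the effect of tag placement on it was not tested. Shares carry Wilson 95% intervals and medians order-statistic 95% intervals. These measure counting error alone (no molecular identifiers were used), and peaks and genes are not replicates, so nothing was tested over them. The planned edgeR test of HuR against IgG could not be run, because the deposited scores are not counts of single samples.

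The members and gene lists were chosen with earlier results of these data known. By rule, values were given for the 12 members with the highest best peak, the highest of each family, the 3 with the most peaks, the 3 with the lowest best peak and the 5 highest genes of the chromatin list. Other named values were chosen after they were seen. An item that these rules name is not reported here and is left out of the plots of single genes, but it stays in the counts and medians. Sequences were 3′-UTR sites of members with the highest such peaks and windows of the highest peaks with no base in an untranslated exon, 1 per gene, which for HDAC2 was its second peak. The work was done in Python 3.11.15 (pandas 2.3.3, numpy 2.4.6, pysam 0.24.0, scipy 1.17.1, matplotlib 3.10.9), and the functions were tested on simulated data.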

Additional observations from a re-analysis of the deposited data

How the results depend on the processing

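Of 30 alternatives to 7 results, 21 left the value within its error or within 1.5 times. With only the peaks at or above the list median score, 70 member peaks on 16 genes were left, with a median score of 49.95, an intron share of 57.1% and a 3′-UTR share of 15.7%. With the gene name column in place of the transcript there were 127 member peaks, of which 103 were shared, on 33 genes, of which 29 were shared. Read 173 bp back, the intron share was 20.4%. The longer motif TATTTAT was in 0% of the 3′-UTR peaks, and a run of 5 T was in 70.0%. Counting 1 peak per locus gave 169 peaks with a median of 24.7, and leaving out KMT2E gave the same median.

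No paired analysis was possible because no column of the deposited table belongs to 1 sample, and for that reason no replicate was left out. With no IgG values or expression levels beside the peaks, a score does not separate binding from the abundance of a transcript, and an unlisted gene is not shown to be unbound. The lowest member score stood for 36 steps of the scale and the list median for 139.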

Other observations

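Of the 133 member peaks in canonical introns, 7 lay over 347 bp from a canonical exon. Of these, 4 were within 347 bp of an exon of another annotated transcript, 2 each on HDAC9 and SETD5. The other 3 had no annotated exon of their gene that close. ARID5B had a pair in intron 3, at chr10:61941048-61941394 with 26.4 on the − strand and at chr10:61941195-61941541 with 32.1 on the + strand, 813 and 960 bp from exon 3. KMT2C had 1 in intron 1, at chr7:152368373-152368719 with 28.9 on the + strand, 9871 bp from exon 2.

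The single non-coding member, SMARCAD1-DT, had 1 peak of 20.1 (16.0 to 24.9) at chr4:94208325-94208671, annotated at its promoter and overlapping an exon of SMARCAD1. It was the 1 member peak that overlapped an exon of another named protein-coding gene, and without it 195 peaks on 43 genes remained.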
